A study of Homo sapiens with 58 samples.

Results

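The regulatory elements (REs) around 8 genes that direct or mark the formation of sensory and autonomic neurons were followed while SOX9 was removed from human cranial neural crest cells (CNCCs). An RE here is a region of open chromatin in the table of 151457 regions that the study defined by ATAC-seq, an assay in which a transposase cuts accessible DNA and the cuts are counted. An RE was taken as a member when its midpoint lay inside the body of, or within 100 kb of an annotated GENCODE start of, NEUROG1, NEUROG2, NEUROD1, ISL1, POU4F1, PHOX2A, HAND2 or ELAVL4. This gave 132 of the 151457 REs, with no RE shared by any pair of genes. NEUROG1 had 27 REs, PHOX2A 22, NEUROD1 17, HAND2 15, ELAVL4 15, NEUROG2 14, POU4F1 13 and ISL1 9. The REs of a gene are numbered by position along the chromosome, as NEUROG1-1, NEUROG1-2 and so on.

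CNCCs are the migratory cells of the embryonic head that form most of the facial skeleton and also contribute sensory and autonomic neurons to the cranial ganglia. Neurogenin and NEUROD factors are basic helix-loop-helix proteins that start the neuronal program by binding short DNA words called E-boxes together with E proteins, and homeodomain factors such as ISL1, POU4F1 and PHOX2A then set which kind of neuron forms. SOX9, a high mobility group transcription factor, bends DNA at ACAAAG-like words and acts in neural crest and cartilage. Accessibility says how open a region is, not whether the nearby gene is expressed. RNA was not analysed here.

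All cells were CNCCs differentiated from H9 human embryonic stem cells. The SOX9-tagged cells came from 2 edited clones, S9CC13 and S9CC47, in which both copies of SOX9 carry FKBP12-F36V, mNeonGreen and V5 at the C terminus, so that the degrader dTAGV-1 removes the protein. WT cells carry no tag. In the titration, SOX9-tagged CNCCs were kept for 48 h in 0, 0.5, 1.6, 5, 16 or 500 nM dTAGV-1, which according to the labels left 100, 77.9, 51.7, 25.8, 8.14 and 0.95% of the SOX9 level, with 7 replicates (a clone in a differentiation) a group. These 7 replicates came from 6 differentiations, as both clones were used in R6. WT CNCCs received 0 or 500 nM for 48 h, with 2 replicates a group. In a time course, both genotypes received vehicle (DMSO) for 24 h or 500 nM for 3 h or 24 h, in the differentiations R4 and R5. Total counts per sample ran from 22.91 to 81.04 M over the 58 samples, and the lowest reduced chi-square of 1653 sample pairs was 1.88, so no pair of libraries agreed within counting noise. In the differentiation R14 of clone S9CC13, the titles and the concentration field of the 0 and 0.5 nM samples disagree. The titles were followed, and values without that replicate are given where they matter. The clone of the SOX9-tagged R5 time course is named differently in the title and the column, and the clone was not used there.

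The cell type was checked at the starts of marker genes, in CPM (counts scaled to the size of the library) at 0 nM. All 10 cranial neural crest markers had an RE within 1 kb of a start, with a median of 41.3 CPM and a range from 1.47 (SOX10) to 95 CPM (ALX1), against a median of 7.19 CPM over the 37377 REs within 1 kb of any annotated start. The 5 differentiated-neuron markers ranged from 2.73 (STMN2) to 48.0 CPM (SYT1), with a median of 15.5 CPM. The 5 neural progenitor markers ranged from 2.4 (SOX1) to 21.2 CPM (LHX2), with a median of 6.18 CPM. Of the 4 pluripotency markers, 3 ranged from 1.20 (POU5F1) to 41.4 CPM (LIN28A), with a median of 12.1 CPM, while NANOG had no RE at its start. Starts of some neuronal genes were therefore open in the same samples as crest marker starts, which does not show that they were open in the same cells. In bulk samples, fewer cells with an open region and less opening in every cell cannot be told apart.

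Among the 132 REs, the most affected was an element 27.1 kb upstream of POU4F1, which lost most of its accessibility within 3 h. Elements inside ELAVL4, at and around NEUROG1, and upstream of NEUROD1 also lost accessibility, while the REs of NEUROG2 and HAND2 called at 500 nM gained. With clone and differentiation as a block, 1 RE of each was called lower as well, HAND2-1 at 500 nM and NEUROG2-9 at 16 nM. None of the 9 ISL1 REs passed the test at any concentration or time, although ISL1-6 was called higher at 16 nM with that block (log2 0.26 ± 0.09, adjusted p = 0.032 by edgeR). The sequences of 3 of the 7 REs that fell at 3 h, the earliest time measured, are shown first, and the others are not shown in this set. NEUROG1-12, which fell late, is shown for contrast. Each is the middle 250 bases of the RE, from the hg38 reference, plus strand, 5′ to 3′, with the SOX words AACAAT and ACAAAG and the E-box CAGATG in capitals in either orientation.
NEUROG1-1 (chr5:135436893-135437142): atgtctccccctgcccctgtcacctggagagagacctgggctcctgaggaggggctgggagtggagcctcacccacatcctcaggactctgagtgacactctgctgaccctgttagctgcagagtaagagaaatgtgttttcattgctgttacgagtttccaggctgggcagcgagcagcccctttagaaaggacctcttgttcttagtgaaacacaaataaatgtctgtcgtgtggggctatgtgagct
NEUROD1-17 (chr2:181780266-181780515): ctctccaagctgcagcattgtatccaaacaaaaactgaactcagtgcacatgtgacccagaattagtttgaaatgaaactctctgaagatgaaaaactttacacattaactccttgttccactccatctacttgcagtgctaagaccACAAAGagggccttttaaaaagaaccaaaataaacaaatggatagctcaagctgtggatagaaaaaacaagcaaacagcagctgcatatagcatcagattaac
ELAVL4-8 (chr1:50193035-50193284): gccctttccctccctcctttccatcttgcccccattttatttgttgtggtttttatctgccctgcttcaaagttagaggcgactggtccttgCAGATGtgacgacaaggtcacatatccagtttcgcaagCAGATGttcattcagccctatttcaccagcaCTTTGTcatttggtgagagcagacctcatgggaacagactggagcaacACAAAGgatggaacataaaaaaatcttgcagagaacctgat
NEUROG1-12 (chr5:135508486-135508735): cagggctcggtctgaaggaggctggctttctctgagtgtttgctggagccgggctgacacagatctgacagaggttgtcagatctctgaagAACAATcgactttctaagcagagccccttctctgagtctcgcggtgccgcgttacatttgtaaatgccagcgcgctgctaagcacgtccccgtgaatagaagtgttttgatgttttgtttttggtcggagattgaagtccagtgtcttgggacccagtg

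ELAVL4-8 has 2 CAGATG words and 3 SOX words in its 501 bases, and NEUROG1-1 has none of these letters in the whole RE.

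Over the REs of 501 bp, the most common width, AACAAT or ACAAAG in either orientation was found in 40 of 105 member REs (38.1%) against 47.2% of all 123778 REs of that width. Among member REs that fell at 500 nM it was in 8 of 11, among those that rose in 2 of 8 and among those not called in 30 of 86. Over all REs of that width the shares were 59.6% of those that fell and 45.0% of those not called. CAGATG, the E-box form that neurogenin and NEUROD proteins are known to bind, was in 37 of the 105 member REs (35.2%) and in 42.1% of all. CANNTG, which covers every E-box including CAGATG, was in 100 of the 105 (95.2%) and in 94.0% of all. TAATTA, a homeodomain word, was in 14 of the 105 (13.3%) and in 13.6% of all, with 0 of the 11 that fell and 3 of the 8 that rose. The share of members with a SOX word or CAGATG was thus below that of the table, and the shares with CANNTG or TAATTA were close to it. These are counts of letters, not of bound sites.

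At 500 nM for 48 h, 15 member REs fell and 11 rose, 26 of 132 (19.7%) against 24.1% of all REs (13.9% lower and 10.2% higher), by edgeR's quasi-likelihood test with differentiation as a covariate and Benjamini-Hochberg adjustment over all REs (threshold 0.05). Their share was below that of the table, and 106 did not pass. The count was 31 (18 lower and 13 higher) with clone and differentiation as a block, for which the share of all REs is not given here. Without S9CC13_R14, whose labels disagree, 18 members were called. The median log2 fold change was -0.01 over the members and 0.02 over all REs, and the members ranged from -2.76 to 0.76. By locus, NEUROG1 had 6 lower and 2 higher, NEUROG2 0 and 4, NEUROD1 4 and 0, POU4F1 1 and 0, PHOX2A 1 and 1, HAND2 0 and 4, ELAVL4 3 and 0, and ISL1 0 and 0. Of member REs within 1 kb of any annotated start, 8 of 39 passed (20.5%), against 15.2% of all such REs, and of those farther away 18 of 93 (19.4%), against 27.1%. The REs with a mean of 100 counts or more at 0 nM passed in 20 of 82 cases (24.4%), against 28.1% of all REs at that depth, and those under 100 counts in 6 of 50 (12%), against 19.7%.

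**Figure D1:**
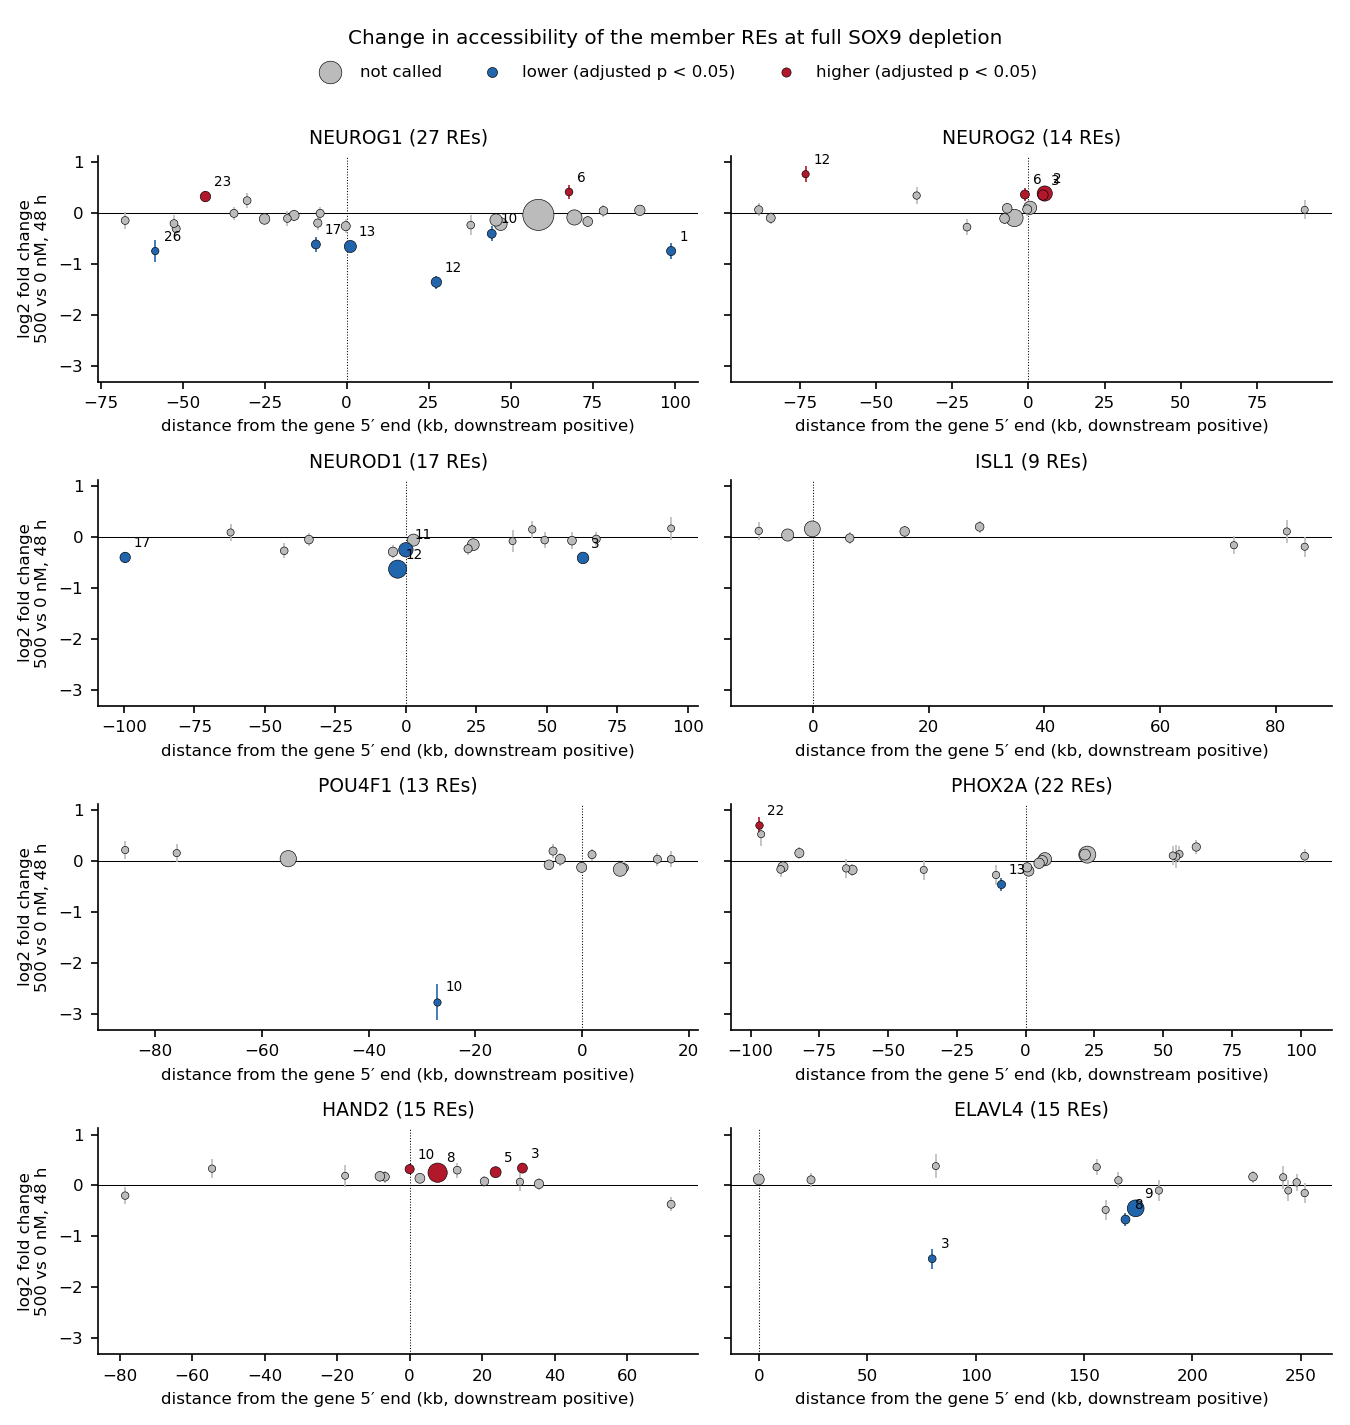
Log2 fold change at 500 nM against 0 nM dTAGV-1 (48 h, n = 7 replicates a group) of each of the 132 REs by distance from the 5′ end of its gene in kb, with bars of 1 SE; point area grows with mean CPM at 0 nM and the numbers are RE numbers. POU4F1-10 stands at -2.76, the 4 called REs of NEUROD1 lie below 0, the 4 each of NEUROG2 and HAND2 lie above 0, and no ISL1 RE is called.

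POU4F1 encodes a POU homeodomain factor of sensory neurons. POU4F1-10 (chr13:78630411-78630911, hg38) lies in an intron of OBI1, and its nearest coding start is that of POU4F1. At 0 nM its accessibility was 0.655 CPM at the lowest, 1.41 at the median and 2.01 at the highest, and at 500 nM 0.0154, 0.135 and 0.616 CPM. The groups did not overlap, and accessibility was lower in 7 of 7 replicates. The log2 fold change was -2.76 ± 0.35 (SE, n = 7, edgeR adjusted p = 1.1e-06), and the mean of 0.210 CPM was 17% of the untreated mean. This RE is shallow, with 58.6 counts a sample on average at 0 nM and 24 at the lowest. Without replicate S9CC47_R8, its highest untreated sample, the change was -2.27. It ranked 554th of all 151457 REs from the most negative log2 fold change.

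The other 12 REs of POU4F1 did not pass the test, with log2 differences from -0.16 to 0.22. POU4F1-6, 58 bp from the start of the gene, went from 6.67 ± 1.24 to 6.20 ± 1.51 CPM (SD, n = 7), a log2 difference of -0.12 ± 0.11 (edgeR adjusted p = 0.49). POU4F1-11, the most accessible at 25.5 ± 3.20 CPM, lies 520 bp from the start of OBI1, an E3 ubiquitin ligase gene, and its difference was 0.05 ± 0.07. The loss at this locus was therefore called at 1 RE, and the start of POU4F1 gave no called change.

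ELAVL4 encodes HuD, an RNA-binding protein of differentiating neurons, and has 18 annotated starts spread over a long gene. ELAVL4-3 (chr1:50103746-50104246), whose midpoint is in a coding exon 86 bp from an internal start, had 1.00, 1.66 and 3.79 CPM at the lowest, median and highest at 0 nM, and 0.537, 0.750 and 0.869 CPM at 500 nM. All 7 treated samples were below all 7 untreated ones. Its log2 fold change was -1.44 ± 0.20 (n = 7, edgeR adjusted p = 5.5e-06). Its SOX word stands 135 bases from the centre and is shown in 30 bases, with the word in capitals.
ELAVL4-3 (chr1:50104116-50104145): catcttattttcCTTTGTgcagcttcatac
In the 3′ part of the gene, the intronic ELAVL4-8 fell by 0.67 ± 0.12 on the log2 scale and ELAVL4-9, the most accessible RE of the locus, by 0.45 ± 0.07 (n = 7, edgeR adjusted p = 0.00017 and 2.1e-05). ELAVL4-9 had a median of 27.2 CPM at 0 nM and 20.0 at 500 nM, with ranges of 21.1 to 35.5 and 16.8 to 24.0 CPM that overlap, and was lower in 7 of 7 replicates. ELAVL4-4, 10 bp from another internal start, went from 0.795 to 1.06 CPM and did not pass (log2 0.38 ± 0.23, edgeR adjusted p = 0.25, n = 7). ELAVL4-1 at the 5′ end of the gene, named after its value was seen, had 8.80 CPM and a difference of 0.12. Its nearest coding start is that of AGBL4, 17 bp away, so its level is not that of an ELAVL4 start alone. The 3 REs that fell thus all lay inside the gene, as did 8 of its 15 REs.

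NEUROG1 encodes a neurogenin that starts the sensory lineage, and its 27 REs share their interval with SLC25A48, CXCL14 and other genes. For 8 of the 27 the nearest coding start was that of NEUROG1. NEUROG1-12 (chr5:135508361-135508861), 27.4 kb downstream of the NEUROG1 start in introns of SLC25A48 and of a long noncoding RNA, fell by 1.36 ± 0.13 on the log2 scale (n = 7, edgeR adjusted p = 1.3e-08). It had 3.41, 6.77 and 15.5 CPM at the lowest, median and highest at 0 nM and 1.89, 2.28 and 5.30 CPM at 500 nM. The highest sample of both groups was replicate S9CC47_R8, so the groups overlap, yet the RE was lower in 7 of 7 replicates, and without that replicate the change was -1.32.

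NEUROG1-13 (chr5:135534218-135535464) covers most of the NEUROG1 gene itself. It had 6.95, 12 and 15.3 CPM at 0 nM and 4.78, 8.26 and 10.2 CPM at 500 nM, and was lower in 7 of 7 replicates. Its log2 fold change was -0.66 ± 0.11 (n = 7, edgeR adjusted p = 3.6e-05). NEUROG1-14, 276 bp upstream of the start, had a difference of -0.26 ± 0.14 that did not pass at 500 nM (edgeR adjusted p = 0.22, n = 7) and one of -0.43 ± 0.14 that passed at 16 nM (adjusted p = 0.047).

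At the far end of the interval, NEUROG1-1 (chr5:135436768-135437268) lies 98.9 kb from NEUROG1 and 10330 bp from the start of DCANP1. It had 3.78, 4.61 and 5.80 CPM at 0 nM and 1.61, 3.15 and 3.30 CPM at 500 nM, without overlap, a log2 fold change of -0.75 ± 0.15 (n = 7, edgeR adjusted p = 0.00039). The other REs that fell were NEUROG1-26 (-0.75), NEUROG1-17 (-0.62) and NEUROG1-10 (-0.41, adjusted p = 0.046 by edgeR), the last of which was not called by DESeq2 or without any one of 5 of the 7 replicates. NEUROG1-26 lost its call without S9CC13_R10 or S9CC47_R5. The REs that rose were NEUROG1-6 (0.41) and NEUROG1-23 (0.32), which is 41 bp from the start of CXCL14, a chemokine gene. Both lost their calls without S9CC13_R10 or S9CC47_R8, and also NEUROG1-6 without S9CC47_R5 and NEUROG1-23 without S9CC13_R14. NEUROG1-7, the most accessible of all members at 106.3 CPM, is 592 bp from a start of SLC25A48, a mitochondrial carrier gene, and differed by -0.04 ± 0.05.

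NEUROD1, a factor that acts after the neurogenins in neuronal differentiation, had 4 REs lower and 0 higher. NEUROD1-12 (chr2:181683367-181684201), 3.0 kb upstream of the start, was its most accessible RE. It had 21.8, 31.4 and 45.8 CPM at 0 nM and 15.3, 19.7 and 28.6 CPM at 500 nM, a log2 fold change of -0.63 ± 0.07 with 7 of 7 replicates lower (n = 7, edgeR adjusted p = 2.5e-07). In the SOX9-tagged time course NEUROD1-12 gave -0.36 ± 0.11 at 3 h and -0.33 ± 0.11 at 24 h. Neither passed (edgeR adjusted p = 0.054 and 0.053, n = 2). A difference from WT was not shown at either time (interaction -0.11 ± 0.17 and -0.21 ± 0.17, edgeR adjusted p = 0.89 and 0.63). NEUROD1-11, 14 bp from the start, went from 18.8 ± 1.78 to 15.8 ± 1.44 CPM (SD, n = 7), or -0.25 ± 0.08 (edgeR adjusted p = 0.018), and lost its call without S9CC13_R10 or S9CC13_R14. NEUROD1-17, 99.6 kb upstream, fell by 0.40 ± 0.10 and NEUROD1-3, 62.8 kb downstream within CERKL, by 0.41 ± 0.10. Of the 8 genes, NEUROD1 was thus one of 2 whose RE with its midpoint nearest a start was called at 500 nM, and the one where it fell. That choice takes 1 RE a gene. Of all 16 member REs whose nearest edge lay within 1 kb of an own start, 5 were called (31.2%), 3 lower and 2 higher. The share over all 132 members was 19.7%, and over all REs within 1 kb of any annotated start it was 15.2%. The lower ones were NEUROD1-11 (-0.25), ELAVL4-3 (-1.44) and the RE that covers most of NEUROG1 (-0.66). The higher ones belonged to NEUROG2 and HAND2.

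NEUROG2, the other neurogenin, had 4 REs higher. NEUROG2-2 (chr4:112510573-112511073), 5.4 kb downstream of the start and past the end of the gene, had 15.7, 20.2 and 27.8 CPM at 0 nM and 23.6, 27.4 and 32.5 CPM at 500 nM. The ranges overlap, and the RE was lower in 0 of 7 replicates, with a log2 fold change of 0.38 ± 0.08 (n = 7, edgeR adjusted p = 0.0013). Its neighbours NEUROG2-3 and NEUROG2-6 rose by 0.35 and 0.36, the latter with a call that was lost without any one of 5 of the 7 replicates. NEUROG2-12 (chr4:112589121-112589621), in ZGRF1 and 1621 bp from a start of that gene, rose by 0.76 ± 0.16 (n = 7, edgeR adjusted p = 0.00073) from a median of 0.920 to 1.35 CPM, with replicate S9CC13_R10 at 4.79 CPM, the highest treated sample. NEUROG2-5, 401 bp from the start of NEUROG2, differed by 0.07 ± 0.13 and NEUROG2-7, the most accessible RE at 29.7 CPM, by -0.10 ± 0.06. Neither passed the test. NEUROG2-9 gave -0.26 ± 0.11 at 16 nM without passing (edgeR adjusted p = 0.13, n = 7), and with the block of clone and differentiation it was called lower (-0.27 ± 0.08, adjusted p = 0.019).

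HAND2, a basic helix-loop-helix factor of sympathetic neurons that also acts in the pharyngeal arches, had 4 REs higher and 0 lower. HAND2-10 (chr4:173529979-173530479), at the start of the gene, had 3.65, 4.77 and 5.61 CPM at 0 nM and 5.01, 5.93 and 6.35 CPM at 500 nM. It was lower in 0 of 7 replicates and rose by 0.32 ± 0.10 (n = 7, edgeR adjusted p = 0.026), a call that was lost without S9CC13_R13, S9CC13_R14 or S9CC47_R8. HAND2-8, the most accessible at 37.6 ± 6.23 CPM, rose by 0.25 ± 0.07 (adjusted p = 0.0066 by edgeR), HAND2-3 by 0.34 and HAND2-5 by 0.26. HAND2-3 lost its call without S9CC13_R14 or S9CC47_R8, and HAND2-5 without any one of 4 replicates. These increases were small, none above 0.34 on the log2 scale. HAND2-1, 72.1 kb downstream of the 5′ end of the gene, was lower in 7 of 7 replicates but did not pass (-0.37 ± 0.14, edgeR adjusted p = 0.065, n = 7), and with the block of clone and differentiation it was called lower (-0.38 ± 0.13, adjusted p = 0.028).

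The other homeodomain genes showed little change. ISL1, a LIM homeodomain factor of sensory and motor neurons, had 9 REs with log2 differences from -0.19 to 0.20. ISL1-3, 96 bp from the start, had 15.9, 25.4 and 31.6 CPM at 0 nM and 18.4, 27.0 and 31.2 CPM at 500 nM (log2 0.16 ± 0.09, n = 7, edgeR adjusted p = 0.25). PHOX2A, a determinant of autonomic neurons, had 20 of 22 REs not called, among them PHOX2A-11, 400 bp from a start (log2 -0.19 ± 0.09), and PHOX2A-6, the most accessible at 28.3 CPM and 460 bp from a start of INPPL1 (0.13 ± 0.07). PHOX2A-13, 9.1 kb upstream, fell by 0.45 ± 0.13 (n = 7, edgeR adjusted p = 0.015), and its call was lost without S9CC13_R10, S9CC13_R13 or S9CC13_R14. PHOX2A-22, 97.0 kb away in CLPB, rose by 0.71 ± 0.15 (adjusted p = 0.00067 by edgeR), from 1.09 to 1.74 CPM over the 7 untreated samples to 2.10 to 2.96 CPM over the treated ones, without overlap.

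**Figure D2:**
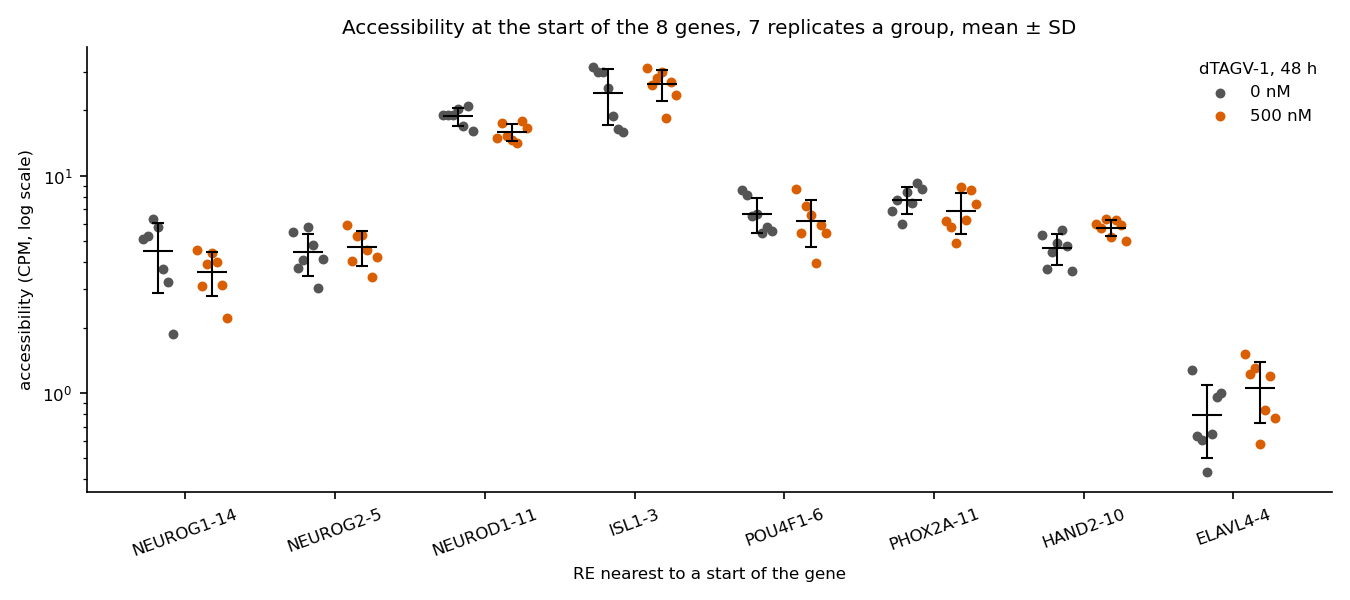
Accessibility in CPM on a log axis of the RE nearest to a start of each gene in the 7 SOX9-tagged samples at 0 nM (grey) and at 500 nM (orange), 48 h; points are replicates and bars are the mean ± SD. NEUROD1-11 is lower at 500 nM (15.8 against 18.8 CPM) and HAND2-10 higher (5.77 against 4.65 CPM). The ranges of the groups overlap at all 8 of these REs. ELAVL4-3, also within 1 kb of an ELAVL4 start and without overlap of the groups, is not among them.

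At lower dTAGV-1 concentrations fewer members passed, each group being compared with the same 7 untreated samples. At 16 nM, 12 fell and 2 rose (10.6%, against 16.2% of all REs, 9.12% lower and 7.12% higher). With clone and differentiation as a block the count was 29, which is 20 lower and 9 higher. At 5 nM, 5 fell and 0 rose (3.79%, against 5.32% of all REs, 4.24% lower and 1.08% higher). They were POU4F1-10 (-1.51), ELAVL4-3 (-1.06), NEUROG1-1 (-0.61), NEUROG1-12 (-0.53) and NEUROG1-13 (-0.45). At 1.6 nM, edgeR called 0 of 132 (0.0383% of all REs), with 3 at an unadjusted p under 0.05, DESeq2 called 0, and the block of clone and differentiation called 1, NEUROG1-1 (log2 -0.36 ± 0.09, adjusted p = 0.03 by edgeR). At 0.5 nM edgeR and DESeq2 each called 0 (0.0% of all REs), with 5 at an unadjusted p under 0.05 by edgeR.

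The level left at each concentration differed between REs. The mean of POU4F1-10 was 98.4% of its untreated level under 0.5 nM, 77.6% under 1.6 nM, 34.5% with 5 nM and 20.9% with 16 nM. ELAVL4-3 stood at 87.2, 75.9, 45.9 and 36.6% at the same concentrations, and NEUROG1-12 at 100.1, 95.6, 69.6 and 56.2%. NEUROG2-12 stood at 96.7, 97.1, 105.4 and 109.5%, and reached 180.0% at 500 nM. The SOX9 level at which a fitted Hill curve passes its midpoint (ED50) was 52.2% for NEUROG1-1 (45.2 to 58.6 with each replicate left out), 44% for ELAVL4-3 (40.3 to 49.3) and 38.1% for POU4F1-10 (33.0 to 40.3). It was 17.6% for NEUROG1-12 (15.2 to 20.3), 13.2% for NEUROG2-2 (11.4 to 16.6) and 3.63% for HAND2-10 (2.05 to 6.26). The medians were 19.7% over the 15 member REs that fell and 8.34% over the 11 that rose, against 20.3% over all 21114 REs that fell and 16.6% over the 15432 that rose. These are descriptions with no test, and the curves of REs with small changes are loosely determined.

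**Figure D3:**
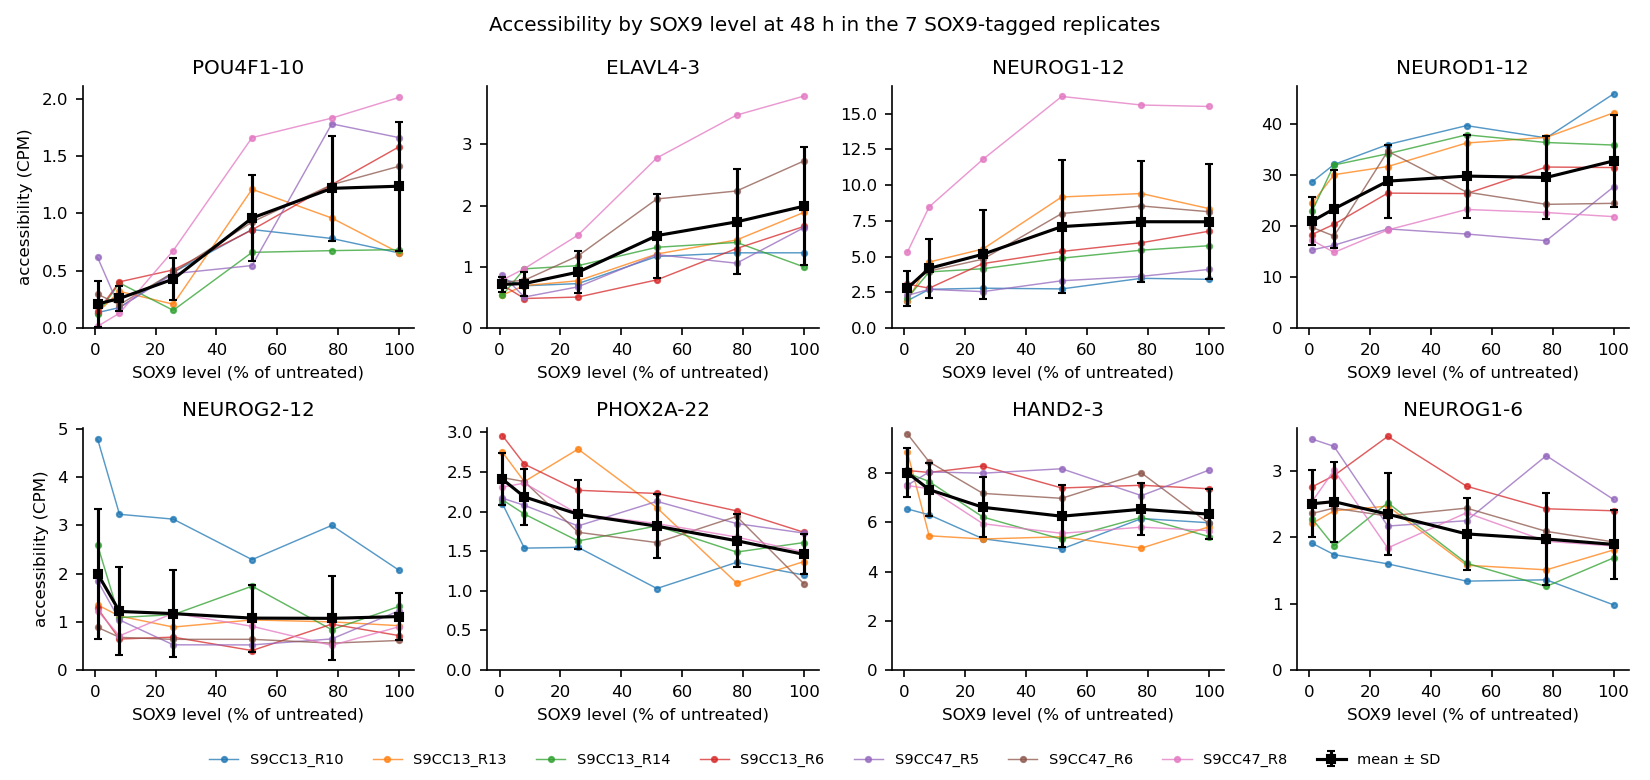
CPM against the SOX9 level (% of untreated, 48 h) in the 7 SOX9-tagged replicates (thin lines) with the mean ± SD (black) for 4 REs that fell and 4 that rose with SOX9 loss, each with the largest called change of its gene in that direction. PHOX2A-13, the called decrease of PHOX2A, is not shown. Its mean stood at 107.6% of the untreated level at 5 nM, 104.7% at 16 nM and 75.3% at 500 nM. POU4F1-10 and ELAVL4-3 have already moved most of the way at 25.8% SOX9 (34.5 and 45.9% of the untreated level), and NEUROG2-12 moves mainly between 8.14 and 0.95%.

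In the time course, 7 member REs fell and 1 rose after 3 h of 500 nM in SOX9-tagged cells (6.06%, against 8.34% of all REs, 7.43% lower and 0.912% higher), and 9 fell and 3 rose after 24 h (9.09%, against 14.6%, 9.93% lower and 4.7% higher). Each group here has 2 samples, paired by differentiation. POU4F1-10 had 3.48 and 3.52 CPM with vehicle, 0.155 and 0.537 at 3 h and 0.217 and 0.424 at 24 h in R4 and R5. In WT cells the same RE had 5.93 and 6.11 CPM with vehicle, 7.50 and 6.42 at 3 h and 6.24 and 5.82 at 24 h. The log2 fold change in SOX9-tagged cells was -3.39 ± 0.32 at 3 h and -3.56 ± 0.32 at 24 h (edgeR adjusted p = 3.9e-07 and 1.3e-07, n = 2), against 0.22 ± 0.15 and 0.01 ± 0.15 in WT. After 48 h of 500 nM the WT difference was 0.56 ± 0.17 and did not pass (edgeR adjusted p = 0.13, n = 2). At 3 h it ranked 104th of all REs from the most negative. Nearly all of its loss was thus present at the first time measured.

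NEUROG1-1 had 7.20 and 7.15 CPM with vehicle in R4 and R5, 3.57 and 2.35 at 3 h and 3.05 and 3.50 at 24 h (log2 -1.36 ± 0.18 at 3 h, n = 2, edgeR adjusted p = 2.4e-05). ELAVL4-3 fell in steps, from 5.41 and 1.85 CPM to 2.31 and 1.28 at 3 h and 0.868 and 0.903 at 24 h, with log2 fold changes of -1.01 ± 0.26 and -1.98 ± 0.28. NEUROD1-17 fell by 0.83 ± 0.13 at 3 h and by 0.60 ± 0.13 at 24 h on the log2 scale. NEUROG1-13, ELAVL4-9 and ELAVL4-8 fell by 0.59, 0.58 and 0.52 at 3 h and by 0.94, 0.74 and 0.84 at 24 h. NEUROG1-2, in exons of DCANP1 and TIFAB, rose at 3 h (0.44 ± 0.12, edgeR adjusted p = 0.03, n = 2) but gave differences of 0.22 at 24 h and 0.05 at 48 h that did not pass. Without the R4 samples, with a single SOX9-tagged sample left a group and the spread taken from the other groups, POU4F1-10 and NEUROG1-1 remained called at 3 h, the whole of the 2 calls then left. Without the R5 samples, NEUROD1-17, ELAVL4-3 and ELAVL4-9 were called as well. DESeq2 did not call ELAVL4-3, ELAVL4-8 or NEUROG1-2 at 3 h.

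NEUROG1-12 followed another course. It had 13.3 and 4.36 CPM with vehicle, 12.9 and 4.33 at 3 h and 4.74 and 3.45 at 24 h in R4 and R5, a log2 difference of -0.10 ± 0.19 at 3 h (edgeR adjusted p = 0.87, n = 2) and -1.01 ± 0.20 at 24 h (adjusted p = 0.0015). In WT cells it had 11.1 and 7.84 CPM with vehicle and 8.55 and 7.51 at 24 h, and the 24 h effect was not shown to differ between the genotypes (interaction -0.82 ± 0.29, edgeR adjusted p = 0.12, n = 2). The log2 ratio of CPM at 24 h to vehicle was -1.47 in R4 and -0.33 in R5 of SOX9-tagged cells. NEUROG1-26 gave -0.81 ± 0.26 at 3 h, which did not pass (edgeR adjusted p = 0.06, n = 2), and -1.73 ± 0.27 at 24 h. The REs that rose by 24 h, NEUROG2-2 (0.49), NEUROG2-6 (0.73) and NEUROG1-23 (0.45), gave 0.22, 0.34 and 0.04 at 3 h without passing. Of the 8 REs called at 3 h, 7 were called in the same direction in the titration at 48 h, against 74.3% of all 12633 REs called at 3 h. All 12 called at 24 h were, against 75.5% of all 22160. By the labels, differentiation R5 is part of both experiments, so they are not fully separate.

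**Figure D4:**
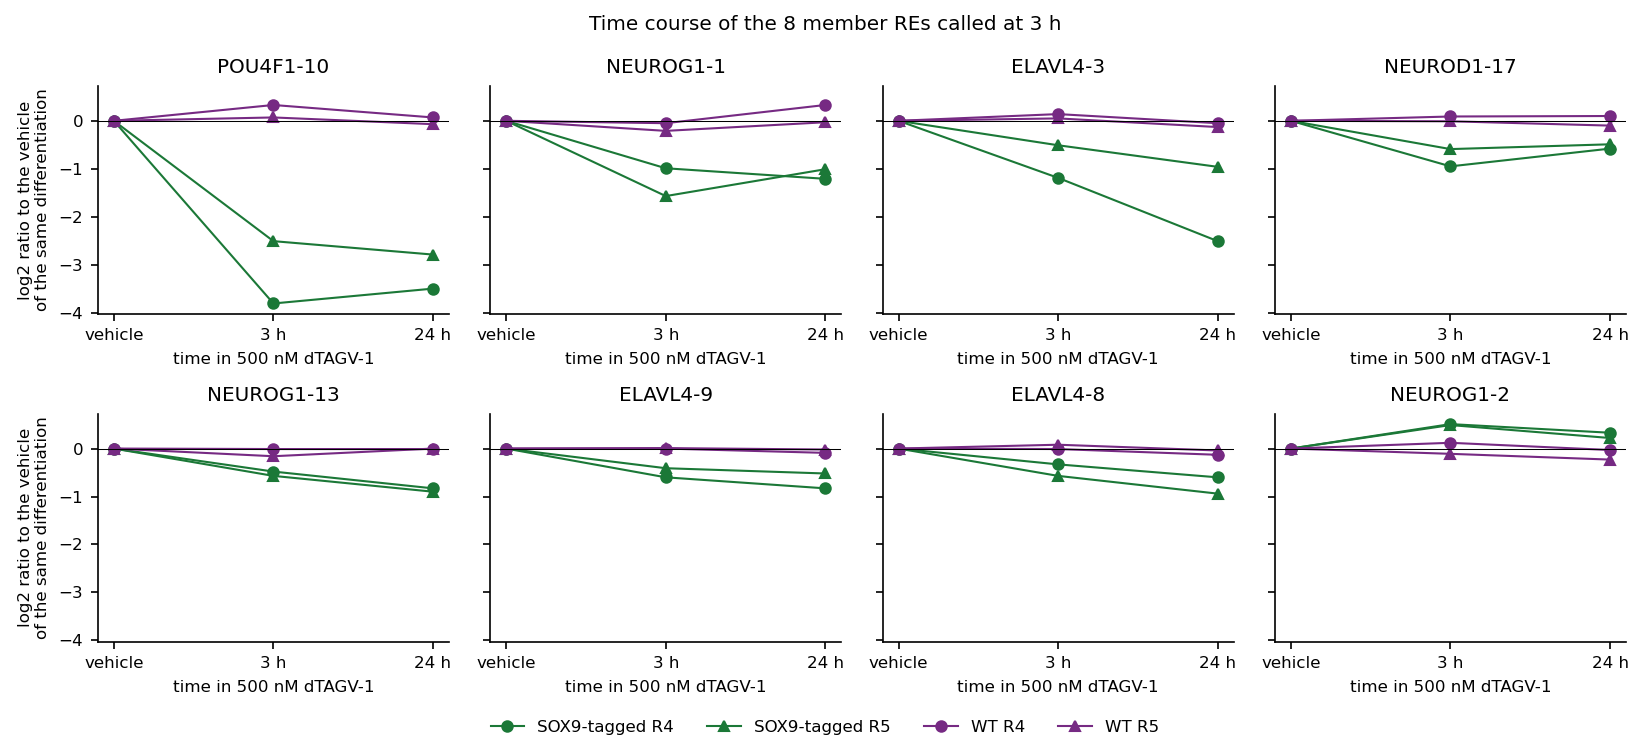
Log2 ratio of CPM to the vehicle sample of the same differentiation (0.1 CPM added to both) after 3 h and 24 h of 500 nM dTAGV-1 for the 8 member REs called at 3 h, in SOX9-tagged (green) and WT (purple) cells of differentiations R4 (circles) and R5 (triangles). The 7 REs that fell drop in both SOX9-tagged differentiations, by 3.81 and 2.51 for POU4F1-10 at 3 h. The smallest of these ratios is -0.33, for ELAVL4-8 in R4 at 3 h. The WT ratios of these 7 REs run from -0.21 (NEUROG1-1, R5, 3 h) to 0.33 (POU4F1-10, R4, 3 h, and NEUROG1-1, R4, 24 h).

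In WT cells, which lack the degradable tag, edgeR called 0 of 132 members at 3 h and 0 at 24 h (0.0% of all REs at both times), with 5 and 4 at an unadjusted p under 0.05, and DESeq2 called 0 at both. After 48 h of 500 nM, 1 member was called in WT (0.758%, against 0.303% of all REs). It was NEUROG1-7, which went from 94.2 to 78.0 CPM in R8 and from 106.3 to 97.7 in RSh (log2 -0.20 ± 0.05, edgeR adjusted p = 0.031, n = 2). DESeq2 did not call it, and leaving out either replicate removed the call. The difference between the genotypes was tested by an interaction term. The 3 h effect differed for 5 members (3.79%, against 5.2% of all REs, 5.13% lower and 0.072% higher) and the 24 h effect for 9 (6.82%, against 6.73%, 6.28% lower and 0.45% higher). At 3 h these were POU4F1-10 (-3.59 ± 0.34, tagged minus WT), NEUROG1-1 (-1.25), ELAVL4-3 (-1.13), NEUROD1-17 (-0.89) and ELAVL4-9 (-0.60). The ELAVL4-3 difference was not called by DESeq2 or without the R4 samples of either genotype or the WT R5 samples. Without the SOX9-tagged R4 samples, NEUROD1-17 and ELAVL4-9 lost this call too, which left 2.

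Without dTAGV-1, 1 member differed between the genotypes in the differentiations that held both (0.758%, against 0.95% of all REs, 0.429% lower). POU4F1-10 was lower in SOX9-tagged cells, at 3.48, 3.52 and 2.01 CPM in R4, R5 and R8, than in WT cells, at 5.93, 6.11 and 2.62 CPM. The log2 difference was -0.64 ± 0.14 (edgeR adjusted p = 0.027, n = 3). DESeq2 called 0 of the 132, and without R5 this call was lost, so it rests on few samples.

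The sequence of POU4F1-10 is not unique. A BLASTN search of its 501 bases against all REs (E-value limit 1e-05) found 709 other REs with similar sequence. Of them, 104 fell and 111 rose at 500 nM, 30.3% in all against 24.1% of the table, with a median log2 fold change of 0.04. Among the other REs called at 3 h, NEUROG1-13 had 3 similar REs and the other 6 had none. Reads of similar regions can be placed wrongly, and the part of this in the level of POU4F1-10 was not tested, although its reads passed the mapping quality filter of the study.

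The same rule was applied to further genes of these programs. The REs of 14 other sensory neuron genes, such as the neurotrophin receptor gene NTRK2 and the sensory factor RUNX3, were 46 lower and 28 higher of 293 (25.3% called, median log2 fold change 0.01 at 500 nM). RUNX3 had 11 lower and 1 higher of 34, NTRK3 8 and 1 of 26, and ATOH1, a bHLH gene, 0 and 4 of 12. For 10 autonomic genes the count was 28 lower and 26 higher of 214 (25.2%, median -0.02). Among them, HAND1 (0 and 5 of 21), GATA3 (0 and 6 of 17) and RET (0 and 6 of 26) had called REs that were all higher. For 10 pan-neuronal genes it was 19 lower and 24 higher of 178 (24.2%, median 0.05), and for 14 repressors of neurogenesis and E proteins 57 lower and 46 higher of 391 (26.3%, median 0.00), among them NOTCH1 with 13 lower and 1 higher of 40 and ID1 with 3 and 9 of 29. All 4 shares lie near the 24.1% of the table, so none of these lists stood apart from it in its share of called REs. At 3 h, against 7.43% lower and 0.912% higher over all REs, the lists in the same order gave 20 lower (6.83%) and 2 higher (0.683%), 11 (5.14%) and 6 (2.8%), 13 (7.3%) and 3 (1.69%), and 24 (6.14%) and 8 (2.05%).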

How the data were processed

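The authors trimmed the ATAC-seq reads, aligned them to hg38 with Bowtie2 2.4.1, filtered them with SAMtools 1.10 for duplicates, mapping quality and mitochondrial origin, called summits with MACS2 2.2.7.1 and merged extended summits into REs. The deposited table holds raw counts per RE, which were used as deposited, with no filter on low counts. edgeR 4.0.16 in R 4.3.3 (TMM factors, quasi-likelihood test, Benjamini-Hochberg adjustment over all 151457 REs, threshold 0.05) was used with differentiation as covariate, separately for each genotype in the time course, and with blocks of genotype by differentiation for the interaction. SEs are the log2 fold change divided by the square root of F. The study used DESeq2, which was run as an alternative (1.42.0). The test was checked on simulated counts. CPM were computed over all 58 samples with TMM factors. Coordinates are 1-based in hg38 with GENCODE release 44, and BLASTN 2.17.0 was used for similar sequences. Replicates are differentiations or clones of 1 stem cell line. With differentiation as covariate, p-values measure the spread that remains after differences in level between differentiations are removed. In the titration, the difference between the 2 clones of R6 stays in that spread.

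Same-numbered samples share a differentiation in the labels. Pairs were taken by clone and differentiation in the titration and by differentiation elsewhere. Deviations from group means within these pairs correlated at 0.675 on average between 0 and 500 nM (lowest 0.518). They correlated at 0.154 or more in every comparison. The value between other pairs (-0.111 at 500 nM) is tied to this by the subtraction of group means and is no separate evidence of pairing.

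The members and the marker and pathway lists were chosen with earlier results of these data known. For each gene, the text names the RE within 1 kb of and nearest to its own starts, its most accessible RE, its called REs with the largest decrease and increase at 500 nM, all members called at 3 h, and members called at 1.6 nM, in WT or between untreated genotypes. Other called REs are named with their value and were chosen after the values were seen. Distances are from the midpoint of the RE. ED50 was fitted on CPM corrected for differentiation, with the ends fixed at the 0 and 500 nM means and values searched from 1 to 300%. Some genes of the lists and 1 sequence are not reported here, and the counts over each list cover all of its genes.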

Additional observations from a re-analysis of the deposited data

Results flagged for a closer look

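In the 7 replicates of a group, 3 values of the named REs stood apart by Dixon's criterion over 56 groups tested, of which chance alone would mark about 1 in 20. They all came from replicate S9CC47_R8. NEUROG1-7 was lowest there at 0 nM (83.2 CPM), and NEUROG1-12 was highest there at 0 nM (15.5 CPM) and at 500 nM (5.30 CPM).

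The effect of 500 nM dTAGV-1 differed between SOX9-tagged and WT cells, by the interaction term of the edgeR model, for 5 members at 3 h. The log2 differences (tagged minus WT) were -3.59 for POU4F1-10, -1.25 for NEUROG1-1, -1.13 for ELAVL4-3, -0.89 for NEUROD1-17 and -0.60 for ELAVL4-9. At 24 h there were 9, of which 8 were lower in SOX9-tagged cells. They were POU4F1-10 (-3.57), ELAVL4-3 (-1.93), NEUROG1-26 (-1.73), NEUROG1-1 (-1.37), NEUROG1-13 (-0.95), ELAVL4-8 (-0.78), ELAVL4-9 (-0.71) and NEUROD1-17 (-0.62). NEUROG2-2 was the 1 RE with a higher effect in SOX9-tagged cells (0.59).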

How the results depend on the processing

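Of the 26 members called at 500 nM, 9 were called without the replicate block of differentiation, and the counts there were 5 at 16 nM, 1 at 5 nM, 0 at 3 h, 0 at 24 h, 0 for the 3 h and 1 for the 24 h interaction, 0 in WT at 48 h and 0 between untreated genotypes. The replicate block of clone and differentiation gave 29 at 16 nM and 1 at 1.6 nM and moved no other count by more than 1.5 times. With DESeq2, 5 were called at 3 h, 0 in WT at 48 h and 0 between untreated genotypes. Members within 50 kb were 5 at 3 h, 3 for its interaction and 0 in WT at 48 h. With each replicate left out, the counts ran from 18 to 33 at 500 nM, 9 (S9CC13_R10 or S9CC47_R8) to 24 (S9CC13_R6) at 16 nM, 4 to 9 (S9CC47_R6) at 5 nM, 2 (R4) to 7 at 3 h, 6 (R4) to 10 at 24 h, 2 (R4) to 6 for the 3 h and 4 (R4) to 7 for the 24 h interaction, 0 to 0 in WT at 48 h and 0 (R5) to 5 (R4) between untreated genotypes, where R8 gave 2. At 1.6 and 0.5 nM and in the WT time course every left-out count was 0. The other scaling (RLE), the low-count filter and the gene 5′ end alone moved no count by more than 1.5 times. Of 336 alternative log2 fold changes of the named REs at 500 nM, 315 kept direction and side of the threshold and 21 lost the call. The causes were not tested. Depth limits REs near 1 CPM, and with 2 samples a group the time course and WT tests rest on a spread borrowed across REs.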
